A study of Mus musculus with 4 samples.

Results

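Genes that store and move iron were examined in lumbar spinal cord RNA of wild type (WT) mice and G93A mice, each with and without spermidine (SD). The 10 genes serve the storage, carriage, uptake or export of iron, its release from heme, or the control of these steps. They were listed by name, with earlier results of these data known: Fth1, Ftl1, Hmox1, Tfrc, Trf, Slc40a1, Slc11a1, Slc11a2, Hamp and Heph. All 10 are among the 18674 gene names of the table. G93A mice carry a human SOD1 transgene with the G93A mutation, are of the H1 high-expresser strain on a B6/SJLF1 background, and model amyotrophic lateral sclerosis (ALS). Both genotypes received SD, a natural polyamine, or phosphate-buffered saline as vehicle 4 times a week for 30 days, and the cord was taken at 100 days of age. Only males entered the treatment studies. RNA was sequenced in 4 libraries, 1 for each genotype and agent (WT vehicle and WT + SD, G93A vehicle and G93A + SD), and how many mice are behind a library is not given in the sources used here. With 1 library per condition no difference has a replicate check and no test was made, so that the values below describe these libraries.

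Iron is needed for respiration, myelin and neurotransmitter synthesis, but free ferrous iron drives the formation of radicals, and cells therefore store it inside ferritin shells. Iron travels bound to transferrin, enters through the transferrin receptor and the divalent metal transporter, and leaves through ferroportin, the exporter that the peptide hormone hepcidin removes from the membrane. In the cord, oligodendrocytes make transferrin and hold much of the ferritin, while microglia take up and recycle iron. Much of the control acts on the RNA itself: when iron is scarce, iron regulatory proteins bind a hairpin called the iron-responsive element, which blocks translation from a 5′ untranslated region (UTR) and protects the RNA from decay in a 3′ UTR.

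The levels were taken as RPKM, reads per transcript length and per total of mapped reads, a unit inferred from the values since none is named. In this unit levels can be compared between genes. Where values are given by genotype, that of the vehicle library stands before that of the SD library. Depth was estimated from the values at about 36800000 to 38600000 read pairs a library. Tissue markers fitted the label, with Mbp of myelin at 3575 to 4669 RPKM, while the liver gene Alb did not exceed 0.0629 RPKM in any library. A fold change is on the log2(RPKM + 0.1) scale unless it is called a ratio, and a gene is counted as higher or lower from 1.5-fold.

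To show which of the RNAs carry the hairpin, the reference transcript of each row was searched on its sense strand for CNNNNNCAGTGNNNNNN with 5 base pairs, G-T pairs allowed, between the bases on either side of the CAGTGN loop. The sites found in the members are shown 5′ to 3′ as DNA, with the loop in capitals.
Fth1: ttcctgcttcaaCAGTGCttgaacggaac
Ftl1: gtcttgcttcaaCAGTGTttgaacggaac
Slc40a1: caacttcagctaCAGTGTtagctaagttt
Tfrc site 1: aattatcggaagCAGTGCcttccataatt
Tfrc site 2: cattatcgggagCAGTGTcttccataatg
Tfrc site 3: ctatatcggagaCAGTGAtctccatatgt
Tfrc site 4: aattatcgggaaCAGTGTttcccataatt
Slc11a2: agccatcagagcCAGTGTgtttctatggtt

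On GRCm38, the sites of Fth1 (chr19:9982732-9982760, plus strand), Ftl1 (chr7:45459779-45459807, minus strand) and Slc40a1 (chr1:45925465-45925493, minus strand) lie in the 5′ UTR. The sites of Tfrc lie in its 3′ UTR between 32631219 and 32631738 on the plus strand of chromosome 16. The strict pattern was found in 4 of the 10 members, against 1.30% of 18243 gene names with a transcript. The Slc11a2 site (chr15:100395152-100395181, minus strand, 3′ UTR) was found only when 1 unpaired base was allowed on the 3′ side of the stem, and 4.05% of names met this or the strict rule. It lies in the transcript of 1 of the 2 Slc11a2 rows and not in the other. Hmox1, Trf, Slc11a1, Hamp and Heph had no match, which says only that these letters were not in the transcripts searched. The sequences are those of GENCODE M21.

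Of the 10 members, 4 (Ftl1, Hmox1, Trf and Slc11a1) were at least 1.5-fold higher in the G93A library of the vehicle pair and 0 were lower, while 14.7% of all names tested were higher and 5.43% lower, or 13.1% and 4.34% of the names with a mean of at least 1 RPKM. Between G93A + SD and WT + SD, 3 of the 9 members with a value in either library were higher (Ftl1, Hmox1 and Slc11a1) and 0 lower, against 17.5% and 7.99% of names, or 15.8% and 7.85% of those with that mean. The median log2 fold change was 0.38 over the 10 members in the vehicle pair and 0.50 over these 9 in the SD pair, beside 0.057 and 0.061 over all names tested. With Hamp, which is at 0 in both SD libraries, entered as no change, the median of the SD pair was 0.29, so that the order of the pairs rests on this choice. The genotype pairs have no library in common, although each has a single library on either side.

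**Figure D1:**
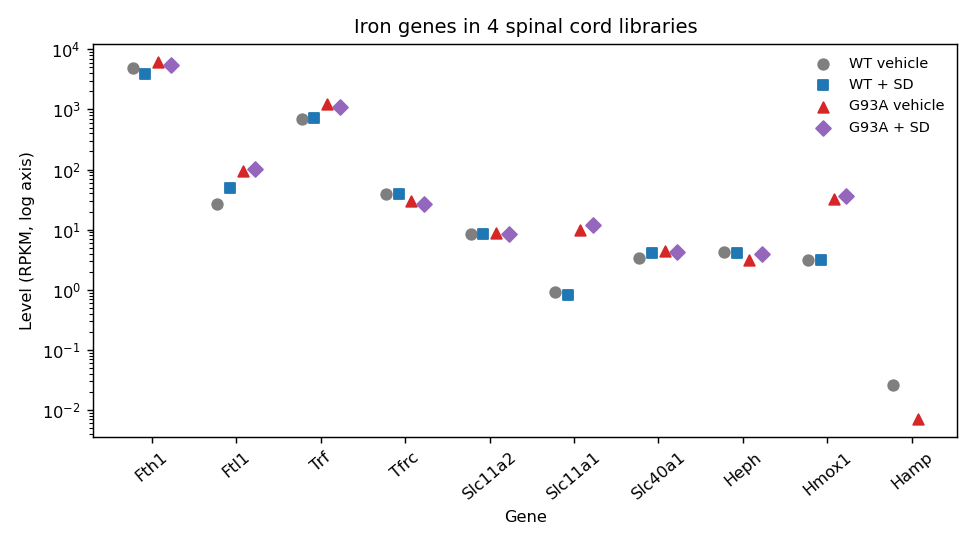
Level of each of the 10 genes in RPKM (log axis) in the 4 libraries, 1 point per library; values of 0 (Hamp in WT + SD and G93A + SD) are not drawn. Hmox1 and Slc11a1 sit about an order of magnitude higher in the G93A libraries, while Slc11a2 stays between 8.34 and 8.79 RPKM.

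**Figure D2:**
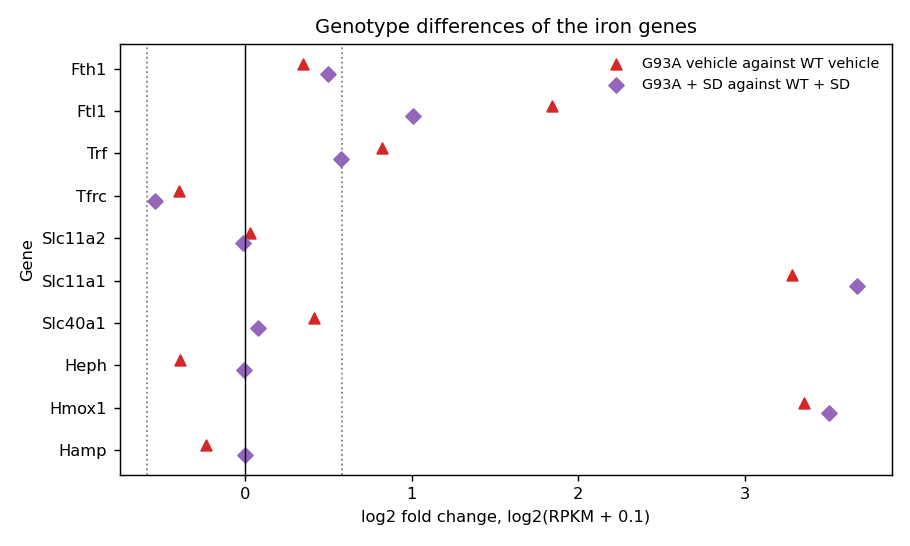
Log2 fold change of each gene between genotypes, under vehicle (triangles) and under SD (diamonds), with dotted lines at 1.5-fold. Hmox1 and Slc11a1 lie above 3 in both pairs, Ftl1 at 1.84 and 1.01, and Tfrc at -0.40 and -0.54.

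The iron stores come first. Fth1 encodes the ferritin heavy chain, which oxidises iron as it enters the shell (plus strand of chromosome 19, 9980598 to 9985098). It had 4872 and 3954 RPKM in WT and 6194 and 5588 RPKM in G93A mice. Fth1 was the highest of all 18674 names in WT vehicle and in both G93A libraries, and the second highest, after Mbp, in WT + SD. Both G93A libraries lay above both WT libraries, but the ratio was 1.27 in the vehicle pair and 1.41 in the SD pair, under the threshold. The WT libraries also differed, at a ratio of 0.811 for SD over vehicle. An estimated 140539 to 218685 read pairs stand behind these values, so that counting error is small, whereas the spread between animals is unknown.

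Ftl1 encodes the ferritin light chain, which helps the iron core to form (minus strand of chromosome 7, 45457944 to 45459884). It had 26.7 and 50.1 RPKM in WT and 95.8 and 100.8 RPKM in G93A mice. The G93A libraries were close to each other and above both WT libraries, and the WT libraries differed from each other by a ratio of 1.88. The G93A value was 3.59 times that of WT vehicle, and 2.01 times in the SD pair. The level of Fth1 was 183 and 78.9 times that of Ftl1 in WT and 64.6 and 55.5 times in G93A mice. The precursors of erythroid cells take up much iron. Summed markers of these cells were 34.4 and 69.3 RPKM in WT and 51.7 and 55.7 RPKM in G93A mice. With SD in WT, 5 of the 5 markers counted as higher, beside 2.32% of all names. Between genotypes 4 of the 5 counted as higher under vehicle and 0 under SD, beside 14.7% and 17.5% of all names. Hba-a1 and Hba-a2 had nearly equal levels, and so had Hbb-b1 and Hbb-b2, so that the 5 may not be separate measures. The part of erythroid cells in the values of Ftl1 was not tested.

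The level of Ftl1 is uncertain, because its RNA is nearly identical to that of processed copies elsewhere in the genome. Of the 916 windows of 53 bases in its transcript, the read length of the study, 824 also occur in a transcript of another gene. Of the 861 windows of 108 bases 659 do. The 108 bases are a read size inferred from few of the values, and this estimate does not match the 53 bases stated. How reads with several origins were assigned is not given in the sources used here. The table also holds a row Ftl2, which RefSeq lists as an older name of the pseudogene Ftl2-ps on chromosome 4 (125504288 to 125504839). Aligned without gaps to the Ftl1 transcript, 545 of the 552 bases of Ftl2-ps are identical (98.7%).

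Ftl2 had 12.1 and 0.186 RPKM in WT and 53.8 and 54.7 RPKM in G93A mice. WT + SD stood apart, with Ftl2 close to 0 in the library in which Ftl1 was 1.88 times its WT vehicle level. Ftl2 was 31.2% and 0.370% of the sum of both rows in WT and 36.0% and 35.2% in G93A mice. The sum was 38.8 and 50.3 RPKM in WT and 149.7 and 155.4 RPKM in G93A mice. On the sum, WT + SD was 1.30 times WT vehicle, under the threshold that Ftl1 alone passed, and the genotype ratios were 3.86 under vehicle and 3.09 under SD. The level of Fth1 was 126 and 78.6 times this sum in WT and 41.4 and 36.0 times in G93A mice. The sum was calculated after the values were seen. An annotated gene on the opposite strand, Gm10252, overlaps exons of Ftl1 as well, and no source says whether counting used strand.

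**Figure D3:**
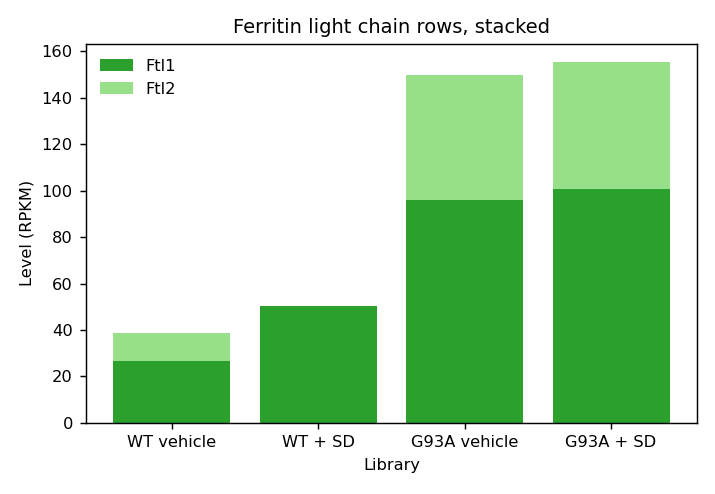
Levels of the ferritin light chain rows in RPKM, Ftl1 (dark) with Ftl2 (light) stacked on it, 1 bar per library. The Ftl2 part is 12.1 RPKM in WT vehicle and 0.186 RPKM in WT + SD, and the G93A sums are 149.7 and 155.4 RPKM.

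Iron delivery and uptake involve Trf, Tfrc and Slc11a2. Trf encodes transferrin, the iron carrier of plasma, and in the cord it is a gene of oligodendrocytes. It had 704 and 731 RPKM in WT and 1244 and 1090 RPKM in G93A mice. Trf was among the 10 highest of all names in every library, and both G93A libraries lay above both WT libraries. The ratio was 1.77 in the vehicle pair and 1.49 in the SD pair, so that only the vehicle pair passed 1.5-fold. The summed level of 8 oligodendrocyte markers went the other way, with 8954 and 9209 RPKM in WT and 7321 and 6739 RPKM in G93A mice. Of the 8, 0 were at least 1.5-fold higher in either pair, beside 14.7% and 17.5% of all names. Lower were 0 in the vehicle pair and 1 in the SD pair, beside 5.43% and 7.99%. The position of Trf on chromosome 9 (103204001 to 103230444, minus strand) overlaps Gm20425, an annotated gene on the same strand that holds 79.6% of the 53-base windows of Trf.

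Tfrc encodes the transferrin receptor, which brings transferrin-bound iron into the cell, and it lies on chromosome 16 from 32608920 to 32632794. It had 39.4 and 39.1 RPKM in WT and 29.8 and 26.8 RPKM in G93A mice. The WT libraries were nearly equal and both G93A libraries were lower, at ratios of 0.758 under vehicle and 0.686 under SD. These differences do not reach 1.5-fold, although with median-ratio scaling the SD pair does, at a log2 fold change of -0.61. Summed markers of endothelial cells, which carry the receptor at the blood-brain barrier, were 48.1 and 46.3 RPKM in WT and 44.9 and 36.8 RPKM in G93A mice, and those of neurons 1618 and 1614 RPKM in WT and 1040 and 884 RPKM in G93A mice. Their part in the result was not tested.

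Slc11a2 encodes the divalent metal transporter DMT1, which passes ferrous iron out of endosomes. The mean of its 2 rows was 8.61 and 8.39 RPKM in WT and 8.79 and 8.34 RPKM in G93A mice. The highest library was 1.05 times the lowest, the smallest range of the members with a value in every library. The row with the hairpin, of 4415 bases, had 9.96 and 9.65 RPKM in WT and 9.84 and 9.21 RPKM in G93A mice. The row without it, of 3025 bases, had 7.26 and 7.13 RPKM in WT and 7.73 and 7.46 RPKM in G93A mice. The hairpin row was 0.989 times its WT level in G93A vehicle and the row without it 1.07 times, a small difference between the rows. The rows share exons, and how reads were divided between them is not given in the sources used here.

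Slc11a1 encodes NRAMP1, a metal transporter of the same family that phagocytes place in the membrane of phagosomes. Its position is the plus strand of chromosome 1, from 74375195 to 74386062. Slc11a1 had 0.925 and 0.834 RPKM in WT and 9.90 and 11.8 RPKM in G93A mice, with about 78.9, 73.9, 871 and 1058 estimated read pairs behind these values. The G93A libraries were about an order of magnitude above the WT libraries, at ratios of 10.7 and 14.2. The log2 fold changes were 3.29 and 3.68, and 2.501 and 2.807 with a pseudocount of 1 RPKM in place of 0.1. Slc11a1 was the ninth of the 10 members in both WT libraries and the sixth in both G93A libraries, above Slc11a2.

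Markers of microglia were higher in the same libraries. The 10 microglial markers summed to 132 and 115 RPKM in WT and 846 and 870 RPKM in G93A mice, which are ratios of 6.39 and 7.57 between genotypes. In the vehicle pair 8 of the 10 were at least 1.5-fold higher, beside 14.7% of all names. They ran from Cx3cr1 with a log2 fold change of 1.56 to Tyrobp with 3.83, and P2ry12 (0.067) and Tmem119 (0.58) were not higher by this measure. In the SD pair 9 of the 10 were higher, beside 17.5% of all names, and P2ry12 (0.28) was not. No microglial marker was at 0 in any library. In whole cord, more cells of a type and more RNA per cell cannot be told apart, and the part of microglia in the values of Slc11a1, Hmox1 and Ftl1 was not tested. Markers of perivascular and blood macrophages were low throughout, with the 5 of them summing to 0.901 and 0.687 RPKM in WT and 1.40 and 1.99 RPKM in G93A mice. These are ratios of 1.56 and 2.91 between genotypes. In each pair 2 of the 5 were at least 1.5-fold higher, beside 14.7% and 17.5% of all names. They were Ccr2 and Pf4 under vehicle, and Mrc1 and Pf4 under SD. The part of these macrophages in the values of Slc11a1 and Hmox1 was not tested.

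Hmox1 encodes heme oxygenase 1, which opens the heme ring and releases its iron, and is known as a stress-induced gene. Its position is the plus strand of chromosome 8, from 75093621 to 75100589, and no window of its transcript was shared with another gene. Hmox1 had 3.08 and 3.15 RPKM in WT and 32.5 and 36.9 RPKM in G93A mice. The WT libraries were nearly equal, and the G93A libraries were 10.5 and 11.7 times as high as the WT libraries given the same agent. Hmox1 was the eighth of the members in both WT libraries and the fourth in both G93A libraries. Its constitutive counterpart Hmox2 had 60.0 and 60.2 RPKM in WT and 54.5 and 50.4 RPKM in G93A mice. Of the heme genes outside the members, 0 of 11 passed 1.5-fold in the vehicle pair, where 14.7% of all names were higher and 5.43% lower, and in the SD pair 2 were higher and 1 lower, beside 17.5% and 7.99%.

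**Figure D4:**
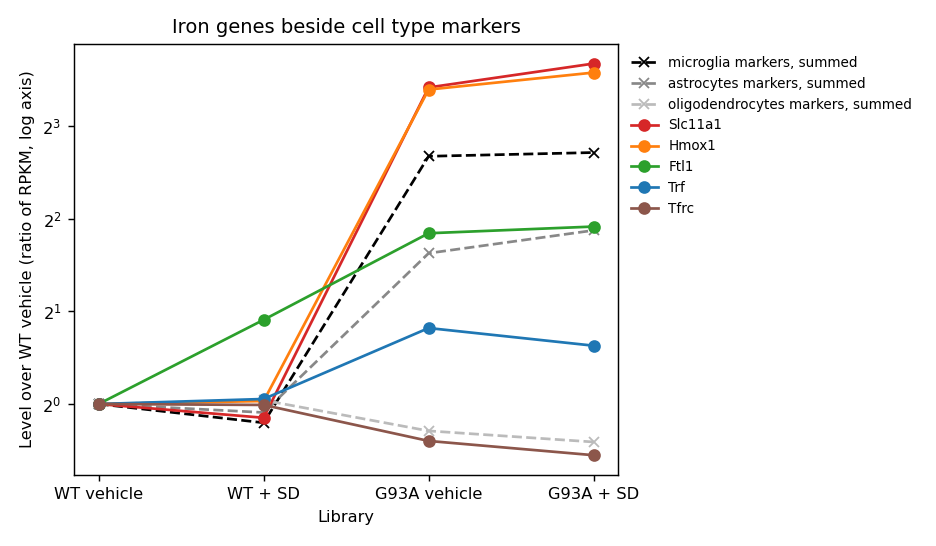
Levels of 5 iron genes (points and solid lines) and summed levels of 3 sets of cell type markers (crosses and dashed lines), each divided by its value in WT vehicle (log axis). Slc11a1 and Hmox1 lie further above WT vehicle than the summed microglial markers in both G93A libraries. Some single microglial markers, which are not drawn, lay higher. In G93A vehicle the ratios to WT vehicle were 14.4 for Tyrobp, 12.3 for Trem2 and 10.8 for C1qa. Slc11a1 was at 10.7 and Hmox1 at 10.5, and the other microglial markers had lower ratios than these. Trf lies above 1 where the oligodendrocyte markers lie below it.

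Iron export and its control made up the rest. Slc40a1 encodes ferroportin, the only known iron exporter of animal cells. It had 3.33 and 4.08 RPKM in WT and 4.46 and 4.30 RPKM in G93A mice. WT vehicle was the low library, and the other three were close to each other. The genotype ratio was 1.34 under vehicle and 1.06 under SD.

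Heph encodes hephaestin, a ferroxidase that works beside ferroportin, and the mean of its 4 rows was 4.19 and 4.03 RPKM in WT and 3.17 and 4.01 RPKM in G93A mice. Here G93A vehicle was the low library, at 0.758 times WT vehicle, and the other three were close to each other. All 4 rows were lower in G93A vehicle than in WT vehicle, with ratios of 0.746 to 0.769, but the rows share most of their exons and are not independent.

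Hamp encodes hepcidin, which is made mainly in the liver. It was listed at 0.0259 RPKM in the WT and at 0.00711 RPKM in the G93A library given vehicle, and at 0 in both SD libraries. The estimate of depth puts less than 1 read pair behind each of these values, and 14.2% of the 53-base windows of Hamp also occur in Hamp2. No difference in Hamp was detectable at this depth.

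SD was compared with vehicle within each genotype. In WT, 1 of the 10 members was at least 1.5-fold higher with SD, which was Ftl1 (not when Ftl2 was added to it, nor at 2-fold), and 0 were lower, against 2.32% and 2.88% of all names, or 0.732% and 1.16% of those with a mean of at least 1 RPKM. In G93A mice 0 of the 10 were higher and 0 lower with SD, against 3.03% and 2.6% of names, or 1.24% and 0.932% of those with that mean. The median log2 fold change of the members was -0.023 in WT and -0.063 in G93A, beside 0.010 and 0.012 over all names tested. In G93A mice the ratio of SD to vehicle ran from 0.876 for Trf to 1.26 for Heph, leaving out Hamp. For Hmox1 this ratio was 1.14 and for Slc11a1 1.20, small beside their ratios between genotypes. These comparisons share a library with those between genotypes, so that a value that is off in 1 library enters both.

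The wider set of iron genes gives the setting. It held 52 genes of uptake, export, sensing, ferritin handling, mitochondrial iron and heme, of which 51 are in the table. In the vehicle pair 9 of the 51 were higher and 1 lower, beside 14.7% and 5.43% of all names, and in the SD pair 11 were higher and 2 lower, beside 17.5% and 7.99%. The shares of higher genes are near those of all names. With SD, 0 were higher and 3 lower in WT, beside 2.32% and 2.88% of all names, and 4 were higher and 0 lower in G93A mice, beside 3.03% and 2.6%. Between genotypes the median log2 fold change was 0.080 under vehicle and 0.10 under SD. The 12 genes of mitochondrial iron and iron-sulfur clusters had 0 higher and 0 lower in either pair.

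In uptake and reduction, 6 of 11 genes were higher and 1 lower in the vehicle pair (14.7% and 5.43% of all names) and 5 higher and 1 lower in the SD pair (17.5% and 7.99% of all names). Cybrd1, a ferric reductase of the plasma membrane, had 0.945 and 0.864 RPKM in WT and 4.52 and 7.47 RPKM in G93A mice. It was higher in both genotype pairs, with log2 fold changes of 2.14 and 2.97, and 0.71 higher on the log2 scale with SD in G93A mice. Steap3, the ferrireductase of endosomes, had 1.55 and 1.36 RPKM in WT and 3.92 and 5.05 RPKM in G93A mice. Its relative Steap4 had 0.0649 and 0 RPKM in WT and 0.648 and 1.03 RPKM in G93A mice, low levels throughout. Among the named genes of this group Steap2 alone went the other way, with 10.0 and 10.9 RPKM in WT and 5.91 and 5.07 RPKM in G93A mice. Slc39a14, the transporter ZIP14 for iron not bound to transferrin, had 7.72 and 8.22 RPKM in WT and 19.5 and 22.1 RPKM in G93A mice. Lcn2, which encodes lipocalin 2, a protein that binds iron-carrying siderophores, had 2.10 and 0.728 RPKM in WT and 5.27 and 4.67 RPKM in G93A mice, and the WT libraries differed as well.

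Outside uptake, ceruloplasmin (Cp), the ferroxidase that astrocytes make, had 3.64 and 3.43 RPKM in WT and 7.90 and 10.2 RPKM in G93A mice. Summed markers of astrocytes were 996 and 935 RPKM in WT and 3081 and 3657 RPKM in G93A mice. Much of this sum is Gfap, with 441 and 386 RPKM in WT and 2269 and 2707 RPKM in G93A mice. Of the 7 markers, 5 were at least 1.5-fold higher under vehicle and 6 under SD, beside 14.7% and 17.5% of all names. Under vehicle Gja1 (ratio of 1.43) and Slc1a2 (0.996) were not, and under SD Slc1a2 (1.10) was not. The part of astrocytes in the value of Cp was not tested. Hfe, a partner of the transferrin receptor, had 2.18 and 2.17 RPKM in WT and 6.38 and 7.21 RPKM in G93A mice. Cp and Hfe were thus higher in both genotype pairs. Bmp6, a signal that raises hepcidin, had 2.43 and 2.36 RPKM in WT and 3.06 and 6.17 RPKM in G93A mice. The G93A + SD library was the high one, and a difference between the genotypes in the response to SD was not tested. The sensors of cell iron differed little, with ratios in the vehicle pair of 1.25 for Aco1 and 1.01 for Ireb2, and 1.05 for the ferritin receptor Ncoa4.

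**Figure D5:**
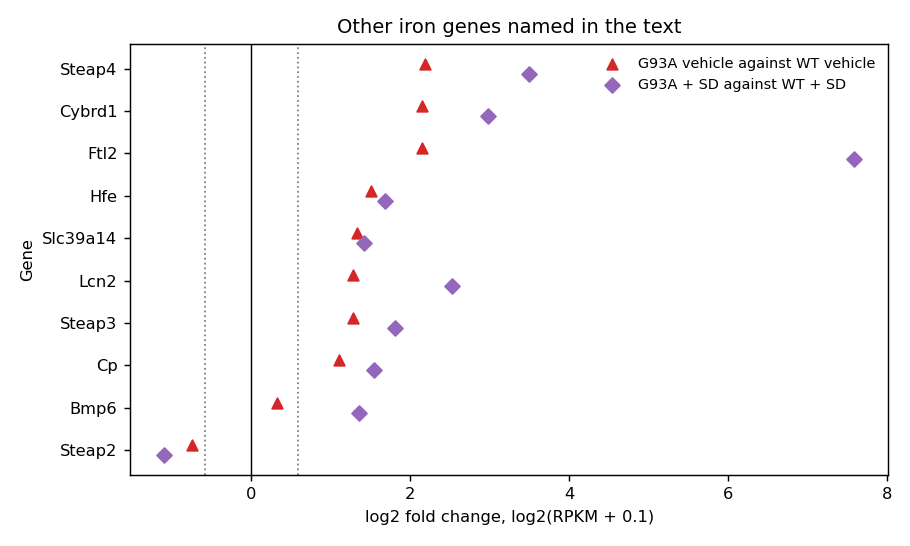
Log2 fold change between genotypes, under vehicle (triangles) and under SD (diamonds), of the 10 other iron genes named by the rule for named genes, with dotted lines at 1.5-fold. Steap2 is the only gene to the left of the lines; the value of 7.58 for Ftl2 under SD comes from its level of 0.186 RPKM in WT + SD.

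For the 3 members with a range of at least 2-fold, the genes with the most similar pattern over the 4 libraries were sought among 12978 names, by the root mean square difference of centred log2 values. The nearest to Hmox1 were Capg (0.072), Serping1 (0.084) and Hpgd (0.090). Those nearest to Slc11a1 were Hpgd (0.074), Cxcl16 (0.080) and Cyba (0.084). Capg had 2.40 and 2.32 RPKM in WT and 22.7 and 25.7 RPKM in G93A mice. Nearest to Ftl1 were Npm3 (0.027), Pdgfrl (0.095) and Asf1b (0.14), low genes with at most 4.11 RPKM in any library. Likeness over 4 libraries is a description only.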

How the data were processed

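Lumbar spinal cord RNA was measured in 4 libraries, 1 per condition, and groups were taken from the sample titles. The methods name polyA selection, reads of 53 bp, alignment with STAR to GRCm38 (mm10, also in the submitters' processing notes) and HTSeq counting on Ensembl genes. The deposited table of 23750 rows lists RefSeq transcripts instead, and its values were taken as RPKM made by the authors, a unit inferred from the values since the header names none. Low values of microRNA rows times transcript length were whole multiples (within 0.05) of a step per library for 84.6% to 93.8% of 13 to 16 values. The step was read as 1 aligned base and 216 bases, the most common value, as a read pair, which gives the estimated depth. This rests on few values and does not match reads of 53 bp, so that no interval is given. Ratio columns of the authors, which hold their fold changes, were not used.

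Rows of a name were averaged. A name was called from 1.5-fold on log2(RPKM + 0.1), and names at 0 in both libraries were not tested. The members and the lists were chosen with earlier results of these data known. All members are named; other iron genes are named where they differed at least 1.5-fold in the same direction in both genotype pairs, or in an SD comparison where their mean reached 1 RPKM. Some others (Hmox2, Aco1, Ireb2, Ncoa4) were chosen after their values were seen. Likeness used names with a mean of at least 1 RPKM and the 3 nearest genes. Of the listed symbols, 4 were matched through RefSeq synonyms. Locations, overlaps and shared windows (either strand, against transcripts of other genes) came from GENCODE M21.

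The alternatives were pseudocounts of 1 and none, a minimum mean of 1 RPKM, median-ratio scaling, a 2-fold threshold and the highest row of a name; adding Ftl2 to Ftl1 was chosen after seeing the data. The calculations ran in Python 3.11.15 (pandas 2.3.3, numpy 2.4.6, plots by matplotlib 3.10.9) and were tested on simulated data.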

Additional observations from a re-analysis of the deposited data

Results flagged for a closer look

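The direction of some values differed between the settings of the same comparison, and with 1 library on each side this was not tested. SD against vehicle gave a log2 fold change of 0.054 in WT and -0.19 in G93A for Trf, 0.29 and -0.052 for Slc40a1, -0.13 and 0.26 for Slc11a1, and -0.052 and 0.33 for Heph. G93A against WT gave 0.030 under vehicle and -0.0093 under SD for Slc11a2. None of these values reaches 1.5-fold.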

How the results depend on the processing

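No paired analysis was possible because the groups share fewer than 2 replicate numbers, and leaving out a library leaves a comparison with no value. A fit of genotype and agent together, which leaves 1 residual degree of freedom, was not run. Ftl1, Hmox1 and Slc11a1 were at least 1.5-fold higher in both genotype pairs under every alternative run, whereas Trf in the vehicle pair was not past a 2-fold threshold. The number of members past the threshold was 3 to 5 in the vehicle pair and 3 to 4 in the SD pair. For SD in WT, where Ftl1 alone passed, the number was 2 without a pseudocount, which adds Hamp, and 0 both with a 2-fold threshold and with Ftl2 added to Ftl1. For SD in G93A it was 1 without a pseudocount, which is Hamp. Of the other iron genes, 4 were past the threshold with SD in G93A, and this number was 2 with a pseudocount of 1 RPKM, 9 without one, 2 with a minimum mean of 1 RPKM and 0 at 2-fold. The causes of these changes were not tested. The median log2 fold change over all 10 members, 0.38 and 0.29 in the genotype pairs with Hamp entered as 0 in the SD pair (0.50 over the 9 members with a value, chosen after seeing the data), was 0.34 and 0.28 with a pseudocount of 1 RPKM, and 0.32 and 0.22 with median-ratio scaling. For SD in WT it was -0.033 with that scaling, and for SD in G93A it was -0.027 with the pseudocount and -0.076 with the scaling. The fold change of Slc11a2 in the vehicle pair turned in sign, from 0.030 to -0.034 with median-ratio scaling and -0.016 with its highest row, and that of Heph in the SD pair from -0.0071 to 0.0030 with its highest row. These values are close to 0 and were not past the threshold, and no other member's fold change turned in sign.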

Other observations

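The promoter windows of 300 bases around the gene starts of the members in RefSeq (GRCm38.p6) were searched on either strand for TGACNNNGC, the core of the antioxidant response element. Windows were at hand for Fth1, Ftl1, Tfrc, Slc11a1 and Hamp. The letters were in 0 of these 7 windows, against 12.4% of 32851 windows of all genes, and this says nothing of sites outside the windows.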
